A study of Mus musculus with 7 samples.

Results

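The genes of cholesterol synthesis and transport were followed in RNA of the forebrain at postnatal day 15 from *Lhx6*+/- (control) and *Lhx6*-/- (mutant) mice. The group held 34 genes, 20 enzymes of the pathway, 7 regulators and 7 genes of transport, storage and turnover. They were taken by symbol, from a list drawn up with earlier results of these data known, so that the counts below are descriptions and not independent evidence of a direction. All 34 were among the 47729 genes of the count table, and all 34 passed the filter on low counts that left 19684 genes for testing. There were 4 control and 3 mutant libraries, each a pool of 2 animals from an F1 of C57BL/6 and 129Sv, so that the p-values below measure only the spread between pools.

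Control animals carried 1 copy of the same null allele (Lhx6tm2Vpa) that mutants carried in both copies, and none of the libraries was labelled wild-type. The allele is inherited through the germline and was not restricted to a cell type. A pool held 2 males, 2 females or 1 of each, and the sex of a given library could not be assigned. Library totals ran from 32556304 to 38069151 expected counts, so that a count of 0 allows up to between 0.0788 and 0.0921 CPM, for counting error only. *Lhx6* itself lay between 475.9 and 615 normalized counts in controls and between 70.1 and 76.6 in mutants (log2 fold change -2.88, adjusted p = 5.99e-05 from edgeR). All markers of excitatory neurons, GABAergic neurons, astrocytes, oligodendrocytes, microglia and endothelium on the lists used were above 0 in each of the 7 libraries. On principal component 1 (39.6% of the variance), libraries 2, 3 and 5 stood apart from libraries 10 to 13, and both genotypes were present on either side.

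The brain makes nearly all of its own cholesterol, because lipoproteins of the blood do not cross the blood-brain barrier, and oligodendrocytes use much of it for myelin in the early postnatal weeks. When sterols in the endoplasmic reticulum are low, SCAP carries SREBP proteins to the Golgi, where they are cleaved and go on to activate the enzymes of the pathway; INSIG proteins hold them back. When sterols are plentiful, oxysterols activate the liver X receptors, which raise genes of cholesterol export such as *Abca1* and also *Srebf1*.

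Promoters are shown for 3 members that stand for these arms: *Hmgcs1*, an enzyme early in the pathway, *Dhcr7*, at its end, and *Abca1*, an exporter. They were chosen after the values were seen. The sequences are those of RefSeq on GRCm38.p6, written 5′ to 3′ on the strand of the gene. Capitals mark matches, on either strand, to TCACNCCAC, a form of the sterol regulatory element that SREBP binds, and to CCAAT, the site (in capitals as its reverse complement where it lies on the other strand) of the factor NF-Y that works beside SREBP. The motifs do not overlap each other in these windows.
*Hmgcs1*, the 250 bases before its start, chr13:119690101-119690350, plus strand: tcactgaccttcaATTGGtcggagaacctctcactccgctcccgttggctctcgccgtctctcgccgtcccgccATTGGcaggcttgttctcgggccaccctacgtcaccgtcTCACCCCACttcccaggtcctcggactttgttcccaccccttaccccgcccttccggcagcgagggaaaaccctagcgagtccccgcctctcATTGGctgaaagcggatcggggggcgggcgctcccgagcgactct
*Dhcr7*, a stretch of 30 bases around the match at position -85 from the last of its RefSeq starts, chr7:143830117-143830146, plus strand: tcactgccttcaCCAATcacaggacgcagc
*Abca1*, the 250 bases before its start, chr4:53159896-53160145, minus strand: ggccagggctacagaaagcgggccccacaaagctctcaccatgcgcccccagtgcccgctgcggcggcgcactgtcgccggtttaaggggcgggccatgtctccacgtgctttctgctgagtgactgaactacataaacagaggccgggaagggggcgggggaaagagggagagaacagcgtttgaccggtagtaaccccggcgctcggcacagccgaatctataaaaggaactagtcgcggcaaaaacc

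Promoters, from 250 bases before to 50 after a start, were found for 28 of the 34 members. TCACNCCAC was present in 1 of these 28 members, *Hmgcs1*, where it begins at position -137, and in 1.436% of the 27025 genes with a promoter. CCAAT was present in 23 of 28 members (82.14%) and in 41.06% of all genes. Among the synthesis enzymes it was found in 16 of 17. *Dhcr7* has 3 promoters in RefSeq, and only the third holds CCAAT, at positions -85 and -49. No match to either motif was found in the window of *Abca1*. A match is a stretch of letters, and binding was not measured.

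Cholesterol genes were expressed across more than 2 orders of magnitude of level in RPKM, which scales counts to library size and to the length of a gene's merged exons (the plot of levels). *Hmgcs1*, the synthase that makes HMG-CoA, was the highest, at 159.7 ± 22.8 in controls (SD, n = 4 pools). *Cyp46a1*, the neuronal hydroxylase through which the brain disposes of cholesterol, followed at 106 ± 8.14. *Srebf2*, the SREBP that chiefly drives cholesterol synthesis, stood at 56.1 ± 5.70, and *Fdft1*, squalene synthase, at 30.96 ± 3.35. Down to the step from *Fdft1* to *Insig1* (23.9 ± 1.01), each gap between neighbours was larger than their SDs added together. From *Insig1* through *Acat2*, *Cyp51* and *Idi1* to *Sc5d*, neighbours did not differ beyond that spread. The lowest members were *Lbr*, at 2.28, and *Nr1h3*, the liver X receptor alpha, at 0.688 ± 0.114.

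**Figure D1:**
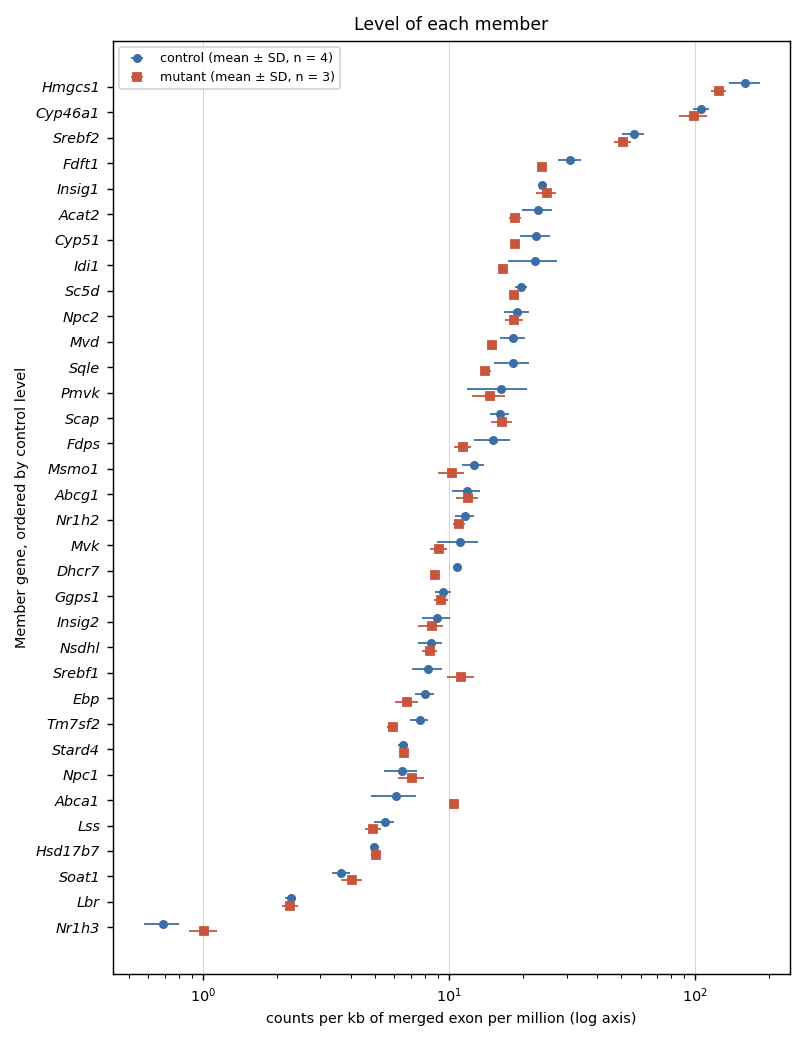
Level of each of the 34 members on a log axis, in RPKM (the counts per kilobase of merged exon that the axis names), as mean ± SD over 4 control pools (circles) and 3 mutant pools (squares), ordered by the control mean. *Hmgcs1* is at the top, at 159.7 in controls, and *Nr1h3* at the bottom, at 0.688.

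The first question was whether members differed between genotypes. *Abca1* was higher in mutants and *Dhcr7* was lower, and the other 32 members did not pass the threshold (edgeR's quasi-likelihood test, adjusted p of 0.05 or less). The count was 1 of 34 higher, where 2.97% of all tested genes were higher, and 1 of 34 lower, where 1.87% were lower. A log2 fold change below 0 was found for 24 members, and it was above 0 for 10, where 47.8% of all tested genes were above 0. The median over the members was -0.098, and over all tested genes it was -0.013. In these bulk samples, fewer cells of a type and less RNA per cell cannot be told apart.

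The values were then taken by role (the map of members by library). Of the 20 synthesis enzymes, 19 had a negative log2 fold change, which 52.2% of all tested genes had, and their median was -0.29. *Dhcr7* was the enzyme called. At an unadjusted p of 0.05 or less, 11 of the 20 were lower, against 8.32% of all tested genes, and none was higher. In 10 of the 20 all mutant libraries lay below all control libraries, against 9.00% of all tested genes. The regulators and the genes of transport, 14 in all, had a median of 0.017, with 9 above 0 and 5 below. In 3 of them, *Srebf1*, *Nr1h3* and *Abca1*, all mutant libraries lay above all control libraries, against 10.7% of all tested genes.

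**Figure D2:**
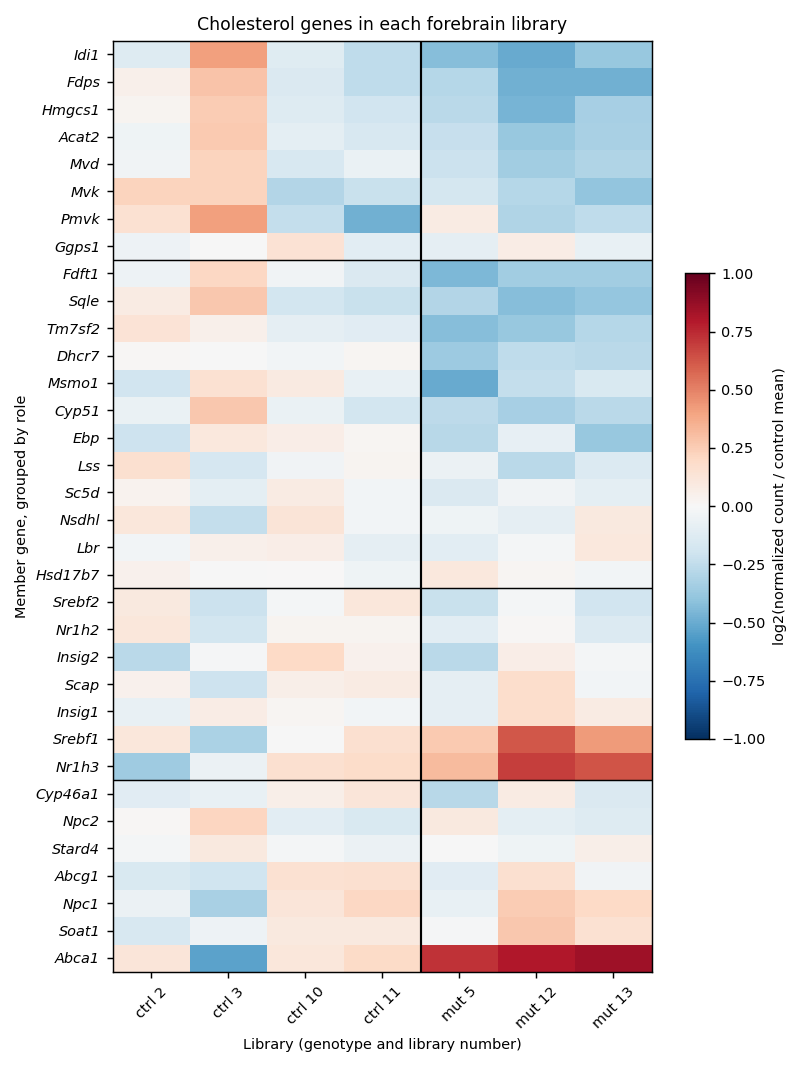
Normalized count of each member in each of the 7 libraries, as log2 of its ratio to the control mean (blue below, red above), with members grouped by role from top to bottom: mevalonate and isoprenoid enzymes, squalene and sterol enzymes, regulators, and transport, storage and turnover. Mutant libraries 5, 12 and 13 are blue for most enzymes and red for *Srebf1*, *Nr1h3* and *Abca1*, while control library 3 is red for many enzymes.

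Control library 3 bore on these values. It was the highest of the 4 controls for 11 of the 20 enzymes, against 4 for library 2, 4 for library 10 and 1 for library 11. Without it, the median of the enzymes was -0.20, 17 of 20 had a negative log2 fold change, and *Dhcr7* was again the one enzyme called (adjusted p = 0.0486 from edgeR). Within libraries 2, 3 and 5 the median of the enzymes was -0.36, and within libraries 10 to 13 it was -0.20. With this run of library numbers as a term of the fit, edgeR called 6 enzymes lower (*Hmgcs1*, *Fdps*, *Fdft1*, *Sqle*, *Tm7sf2* and *Dhcr7*), where 5.04% of all tested genes were called lower. With genotype alone, DESeq2 called 3 lower (*Fdft1*, *Tm7sf2* and *Dhcr7*), where 3.60% of all genes were, and limma-voom called 0.

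The mevalonate arm builds isoprenoid units from acetyl-CoA. All 8 of its enzymes had a negative log2 fold change, with a median of -0.30, and 0 of 8 were called by edgeR, DESeq2 or limma-voom. Of all genes, edgeR called 1.87% lower, DESeq2 3.60%, and limma-voom 355 of 19684. With the run of library numbers in the model, edgeR called 2 of the 8 lower, against 5.04% of all tested genes. At an unadjusted p of 0.05 or less in edgeR, 5 of 8 were lower, against 8.32% of all tested genes. *Hmgcs1* (chr13:119690462-119708086, plus strand), whose promoter is shown above, had normalized counts of 18728, 21964, 16817 and 16076 in controls (libraries 2, 3, 10 and 11) and of 15248, 13307 and 14597 in mutants (libraries 5, 12 and 13). All mutants lay below all controls, at 78.2% of controls on average, and control library 3 was the highest. Its log2 fold change was -0.35 ± 0.120 (SE, edgeR adjusted p = 0.155).

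*Idi1*, the isomerase of isopentenyl diphosphate, had 2543, 3712, 2557 and 2337 normalized counts in controls and 2080, 1968 and 2148 in mutants, in the same order of libraries. Genotypes did not overlap, and control library 3 stood far above the other three. The log2 fold change was -0.43 ± 0.154 (SE, edgeR adjusted p = 0.178), and it was -0.26 without control library 3. Of the 36-base words of *Idi1*, 18.4% occur in another gene, *Gm13502* among them, so that its counts are uncertain.

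*Fdps*, which joins these units into farnesyl diphosphate, had 2345, 2771, 2049 and 1907 normalized counts in controls and 1862, 1628 and 1623 in mutants. The highest mutant, library 5, lay just below the lowest control, library 11. The log2 fold change was -0.41 ± 0.132 (SE, edgeR adjusted p = 0.133, and 0.0246 with the run of library numbers in the model). Its counts are uncertain, since 27.6% of its 36-base words are shared and 26.7% of its exon bases overlap *Gm43738* on the same strand.

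Of the other mevalonate genes, *Acat2*, the thiolase of the first step, had a log2 fold change of -0.31 ± 0.111 (SE), and 42.3% of its words are shared, chiefly with *Acat3*. *Mvd*, the decarboxylase, stood at -0.29 and *Mvk*, mevalonate kinase, at -0.28. *Pmvk*, the next kinase, was at -0.15 with a standard error of 0.207, the widest of the group. *Ggps1*, which leads away from sterols to the lipids that anchor proteins in membranes, was at -0.03.

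The second arm turns farnesyl diphosphate into squalene and then through a series of sterols into cholesterol. Of its 12 enzymes, 11 had a negative log2 fold change, with a median of -0.26; 1 was called lower (1.87% of all tested genes), and 6 were lower at an unadjusted p of 0.05 or less (8.32% of all tested genes). *Dhcr7* (chr7:143823145-143848410, plus strand) encodes the reductase at the end of the Kandutsch-Russell branch. It had 2253, 2235, 2191 and 2271 normalized counts in controls and 1742, 1872 and 1859 in mutants. The controls lay close together, and all mutants lay below them.

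The mean of *Dhcr7* fell from 2237 ± 33.9 (SD, n = 4 pools) to 1825 ± 71.4 (SD, n = 3 pools), or 81.5% of controls, with a log2 fold change of -0.29 ± 0.066 (SE, edgeR adjusted p = 0.0411). Among libraries 2, 3 and 5 alone it was -0.36, and among libraries 10 to 13 it was -0.26. The call stood close to the threshold: the adjusted p from edgeR was 0.177 without mutant library 5, 0.128 without 12 and 0.161 without 13, and 0.0874, 0.0992 and 0.101 without control library 2, 10 and 11. DESeq2 gave 0.00215 and limma-voom 0.0518, and edgeR with no filter on low counts gave 0.0853.

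*Fdft1* (chr14:63145153-63177793, minus strand), squalene synthase, had 3041, 3644, 3086 and 2851 normalized counts in controls and 2311, 2477 and 2483 in mutants. Genotypes did not overlap, and mutants averaged 76.8% of controls. Its log2 fold change was -0.38 ± 0.095 (SE, edgeR adjusted p = 0.0602, 0.00997 from DESeq2 and 0.0333 from edgeR with the run of library numbers in the model). *Ctsb*, on the opposite strand, overlaps 26.8% of its exon bases, and 12.8% of its words are shared, so that its counts are uncertain.

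*Sqle*, squalene epoxidase, a rate-limiting step after squalene, had a mean of 3583 ± 588 in controls and 2778 ± 134 in mutants, with a log2 fold change of -0.37 ± 0.126 (SE, edgeR adjusted p = 0.161). *Tm7sf2*, a sterol reductase, had 942 ± 77.9 and 733 ± 38.1, with a log2 fold change of -0.36 ± 0.095 (SE, edgeR adjusted p = 0.0715). Of the exon bases of *Tm7sf2*, 15.3% overlap *Vps51* on the same strand, which makes its counts uncertain. In both genes, as in *Cyp51*, the demethylase of lanosterol (-0.29), all mutants lay below all controls.

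*Msmo1*, the methyl sterol oxidase, had the same log2 fold change as *Cyp51* at -0.29, but its genotypes overlapped. *Ebp*, a sterol isomerase, was at -0.24, *Lss*, which closes squalene epoxide into lanosterol, at -0.15, and *Sc5d*, a desaturase, at -0.09. The values of *Nsdhl* (-0.01), *Lbr* (-0.01) and *Hsd17b7* (0.04) were smaller than their standard errors. *Lbr*, which also anchors chromatin at the nuclear envelope, carries the same reductase activity as *Tm7sf2*.

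**Figure D3:**
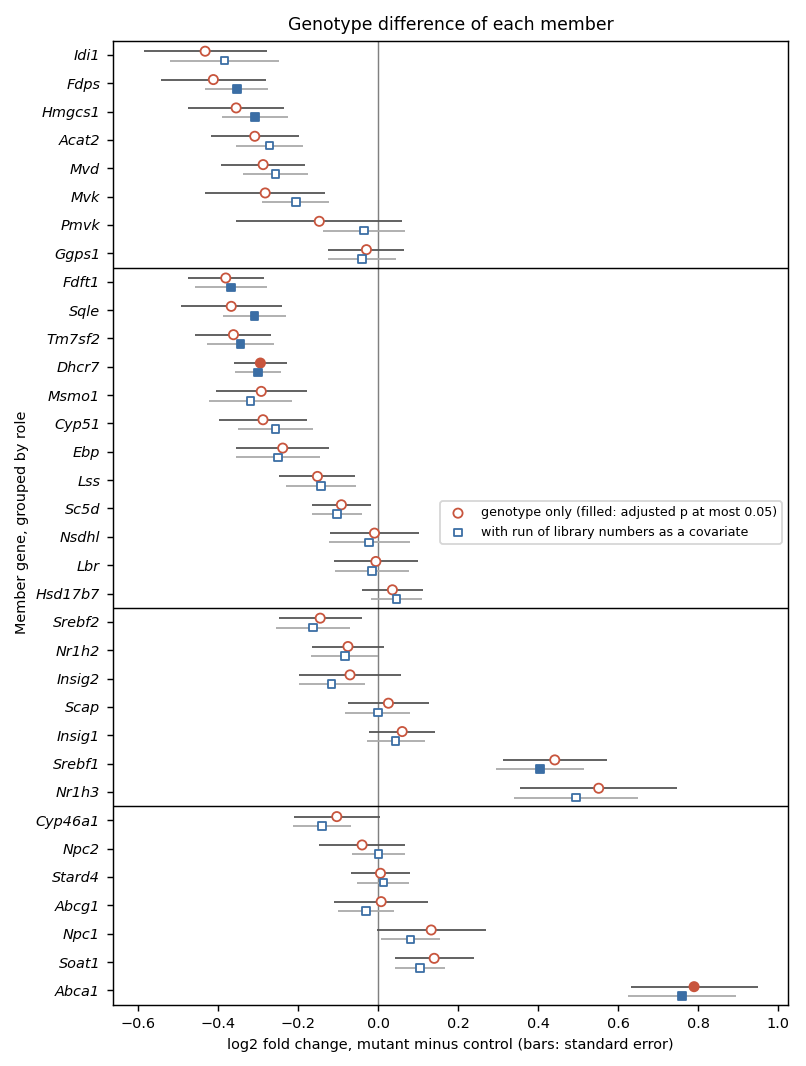
Log2 fold change (mutant minus control) of each member with its standard error, from edgeR with genotype alone (circles) and with the run of library numbers in the model (squares); filled symbols have an adjusted p of 0.05 or less. With genotype alone *Dhcr7* and *Abca1* are filled, and with the covariate 6 enzymes, *Srebf1* and *Abca1* are.

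Among the 7 regulators, 0 were called by edgeR and 0 by limma-voom, and the median was 0.026. Of all tested genes, edgeR called 2.97% higher and 1.87% lower, and limma-voom called 608 and 355 of 19684. At an unadjusted p of 0.05 or less *Srebf1* and *Nr1h3* were higher, 2 of 7, where 9.92% of all tested genes were. DESeq2 called 1 higher, *Srebf1*, where it called 4.79% of all its genes higher. *Srebf1* (chr11:60199089-60222581, minus strand) encodes the SREBP that chiefly drives fatty acid genes and is itself a target of liver X receptors. It had 1792, 1327, 1653 and 1846 normalized counts in controls and 1979, 2545 and 2217 in mutants. Genotypes did not overlap, and mutants averaged 136% of controls.

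The log2 fold change of *Srebf1* was 0.44 ± 0.131 (SE, edgeR adjusted p = 0.103). DESeq2 gave 0.0324, and edgeR with the run of libraries as a covariate gave 0.0488, a fit that called 6.16% of all tested genes higher. *Nr1h3* had 48.3, 59.2, 69.1 and 70.1 normalized counts in controls and 76.6, 99.4 and 95.6 in mutants. All mutants lay above all controls, at a low level where counting error is largest among the members. Its log2 fold change was 0.55 ± 0.196 (SE, edgeR adjusted p = 0.177).

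*Srebf2*, the other SREBP gene, stood at -0.14 ± 0.104 (SE), and *Nr1h2*, liver X receptor beta, at -0.08. *Scap*, the escort of SREBP, was at 0.03, *Insig1* at 0.06 and *Insig2* at -0.07, each smaller than its standard error. The difference between *Srebf1* and *Srebf2* was not tested.

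Among the 7 genes of transport, storage and turnover, 1 was called higher and 0 lower by edgeR, by DESeq2 and by limma-voom. Of all tested genes, edgeR called 2.97% higher and 1.87% lower, and DESeq2 called 4.79% and 3.60% of all its genes. Of 19684 genes, limma-voom called 608 higher and 355 lower. At an unadjusted p of 0.05 or less in edgeR, 1 of the 7 was higher and 0 lower, against 9.92% and 8.32% of all tested genes. *Abca1* (chr4:53030787-53159895, minus strand) encodes the transporter that loads cholesterol onto apolipoproteins at the cell surface. It had normalized counts of 2436, 1554, 2427 and 2565 in controls (libraries 2, 3, 10 and 11) and of 3696, 3909 and 4042 in mutants (libraries 5, 12 and 13). All mutants lay above all controls, and control library 3 was well below the other controls.

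The mean of *Abca1* rose from 2245 ± 466 (SD, n = 4 pools) to 3882 ± 175 (SD, n = 3 pools), or 173% of controls, with a log2 fold change of 0.79 ± 0.159 (SE, edgeR adjusted p = 0.0276). Among libraries 2, 3 and 5 alone it was 0.89, among libraries 10 to 13 it was 0.67, and it was 0.65 without control library 3 (adjusted p = 0.00413 from edgeR). The adjusted p from edgeR was above 0.05 without control library 10 (0.0574) and without mutant library 5 (0.0587), 12 (0.0944) and 13 (0.115). DESeq2 gave 8.74e-05 and limma-voom 0.0299.

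*Abcg1*, a further exporter and target of liver X receptors, had a log2 fold change of 0.01 ± 0.118 (SE). *Soat1*, which esterifies cholesterol for storage, was at 0.14 and *Npc1*, which moves cholesterol out of lysosomes, at 0.13. *Npc2*, its soluble partner, was at -0.04. *Stard4*, a carrier of sterols in the cytosol, was at 0.01 and *Cyp46a1* at -0.10. None of these 6 passed the threshold.

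**Figure D4:**
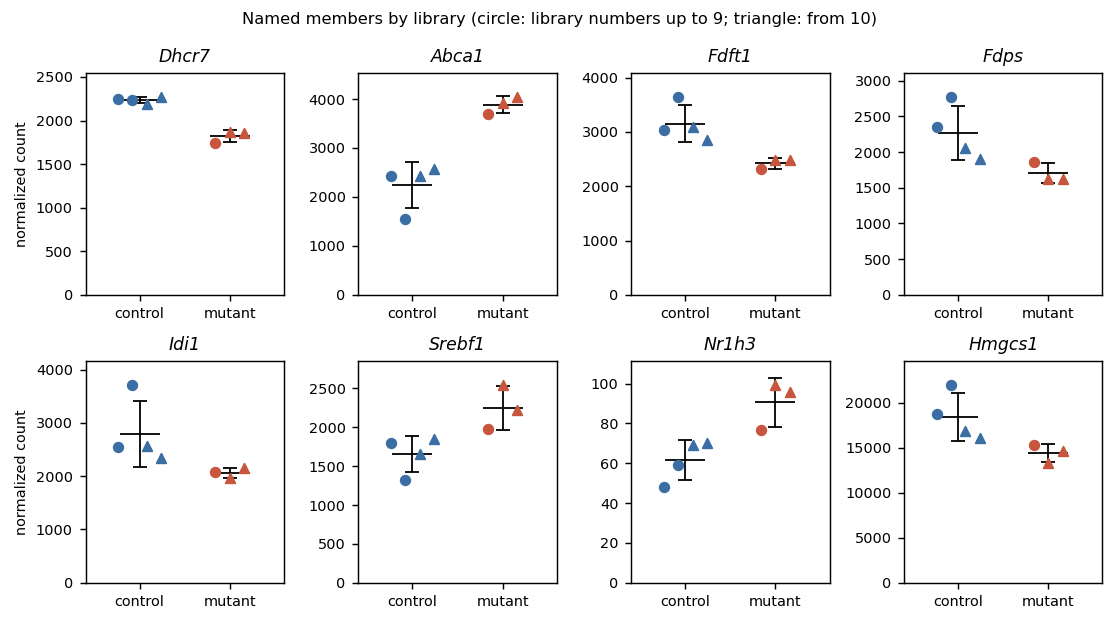
Normalized counts by library of 8 members, from 0, with controls in blue and mutants in red; circles are libraries 2, 3 and 5, triangles are libraries 10 to 13, and bars give the mean ± SD. The 8 are the called members, the 5 others of largest change, and *Hmgcs1*, added after its values were seen. Genotypes do not overlap in any of the 8, which this choice favoured. Of all 34 members, mutants lay all below controls in 10 and all above in 3, against 9.00% and 10.7% of all tested genes. For *Abca1* control library 3 is the lowest point, at 1554, and for *Idi1* it is the highest, at 3712.

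Further genes of the pathway were taken from 2 other lists. Of 23 other genes of cholesterol synthesis, uptake and transport, edgeR called 0 in either direction, and the median log2 fold change was -0.022. At an unadjusted p of 0.05 or less, 2 were higher and 2 lower, near the 9.92% and 8.32% of all tested genes. DESeq2 called 2 higher and 1 lower, where it called 4.79% and 3.60% of all its genes, and limma-voom called 0 higher and 1 lower. Of 13 fatty acid genes that SREBP drives, 1 was called higher and 0 lower by edgeR (2.97% and 1.87% of all tested genes), with a median of 0.0060. At an unadjusted p of 0.05 or less, 2 were higher and 2 lower (9.92% and 8.32% of all tested genes). DESeq2 called 2 higher and 2 lower, and limma-voom 1 higher and 0 lower. The gene called was *Elovl5*, an elongase of polyunsaturated fatty acids, which rose from 3455 ± 146 to 4373 ± 104 (0.34 ± 0.070 on the log2 scale, SE, edgeR adjusted p = 0.0305). The others, named after their values were seen, were *Gpam*, which begins glycerolipid synthesis, at 0.59 (adjusted p = 0.0509), *Acss2*, which makes acetyl-CoA from acetate, at -0.33 (0.0561), and *Elovl6*, an elongase of saturated chains, at -0.37 (0.0660).

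The summed levels of several lists of cell type markers also lay apart between genotypes. The 20 enzymes summed to between 380 and 495 RPKM in controls and between 334 and 357 in mutants, or 81.2% of the control mean. *Hmgcs1*, which edgeR did not call, was a large part of this sum. It held 159.7 of a mean of 426.3 RPKM in controls and 124.9 of 346.3 in mutants. The 12 oligodendrocyte markers, genes of myelin and its cells, summed to between 1248 and 1735 in controls and between 907 and 1215 in mutants, or 71.0%. All 12 had a negative log2 fold change (52.2% of all tested genes), with a median of -0.49. Of the 12, 3 were called lower (1.87% of all tested genes): *Mbp* (-0.53), *Mag* (-0.54) and *Cnp* (-0.48), with adjusted p-values of 0.00752, 0.0100 and 0.0101 from edgeR. With the run of library numbers in the model, edgeR called 11 of the 12 lower, against 5.04% of all tested genes. DESeq2 called 5 lower, against 3.60% of all its genes, and limma-voom called 3.

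The order of libraries was not the same in both sums. Control library 3, the highest for the enzymes, lay below libraries 10 and 11 for the oligodendrocyte markers, and mutant library 5, the lowest for these markers, was the highest mutant for the enzymes. For the 12 squalene and sterol enzymes alone, mutant library 5 was the lowest mutant, at 124 RPKM against 128 and 129. For the 8 mevalonate enzymes it was the highest mutant, at 233 against 206 and 219. The 10 astrocyte markers summed to between 851 and 1077 in controls and between 1233 and 1395 in mutants. Of them 9 had a positive log2 fold change (47.8% of all tested genes), and *Gfap*, the intermediate filament of astrocytes, was called higher at 1.95 (adjusted p = 7.41e-05 from edgeR). The other 9 astrocyte markers were not called, and the median of the 10 was 0.17. The 8 microglia markers summed to between 143 and 155 in controls and between 125 and 139 in mutants, and the 6 endothelium markers to between 48.0 and 64.0 and between 66.5 and 77.5. The 6 GABAergic neuron markers summed to between 362 and 426 in controls and between 157 and 202 in mutants, or 46.6% of the control mean, although their median log2 fold change was 0.22: *Sst* (-3.19) and *Pvalb* (-3.05), markers of interneurons, were called lower and *Vip* (0.94) higher. The 6 markers of cortical excitatory neurons overlapped between genotypes, at 1073 to 1331.5 in controls and 1119 to 1318 in mutants, or 98.4% of the control mean. The part of these lists in the results of the cholesterol genes was not tested.

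**Figure D5:**
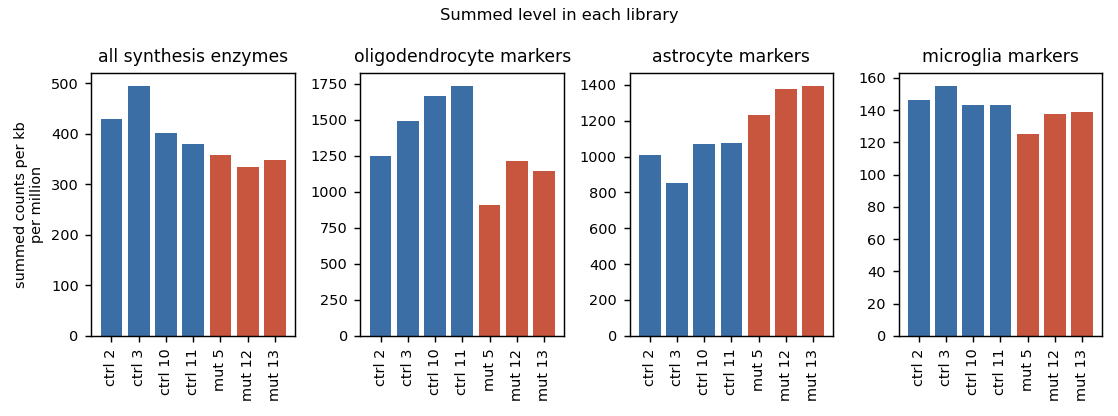
Summed level in each library, in RPKM, of the 20 synthesis enzymes and of the oligodendrocyte, astrocyte and microglia markers, with controls in blue and mutants in red; each bar is 1 library. For the enzymes, the oligodendrocyte markers and the microglia markers all mutant libraries lie below all controls, and for the astrocyte markers all lie above.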

How the data were processed

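Forebrain RNA was read as 36 bp single ends. The authors trimmed reads with CutAdapt 1.9.1, aligned them with Bowtie2 2.2.9 to the transcriptome of Ensembl release 84 (GRCm38) and deposited RSEM 1.2.31 expected counts per gene, without normalization. RSEM divides reads that match several genes. The authors' DESeq2 table, with log2 fold changes and p-values, served for gene symbols only.

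Expected counts were rounded. A gene needed 10 counts in at least 3 libraries to enter TMM normalization and edgeR 4.0.16 (quasi-likelihood F-test, no covariate, R 4.3.3), with Benjamini-Hochberg adjustment over all tested genes and a threshold of 0.05. Normalized counts are scaled to the mean effective library size, and standard errors are the log2 fold change over the root of F. Column names give genotype and library number only; 0 columns of samples were unused. All pairs of libraries of a genotype differed by more than sampling noise. Alternatives were DESeq2 1.42.0, limma-voom 3.58.1, RLE, no filter, unrounded counts, the run of library numbers (2, 3 and 5 against 10 to 13) as a covariate, and each library left out. Within-run values used log2 with a pseudocount of 0.5. Scripts were tested on simulated data. Shared sequence was taken as 36-base words of GENCODE exons found in another gene. The members and all lists were chosen with earlier results of these data known. Called members, the 5 others of largest change, and *Hmgcs1*, added after its values were seen, are given by library.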

Additional observations from a re-analysis of the deposited data

Results flagged for a closer look

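In 3 of the 34 members, 1 control library lay far from the other controls by Dixon's test, which chance flags in about 1 group in 20, and in each it was control library 3. *Idi1* was highest there, at 3712 normalized counts against 2557 for the next control. *Scap* was lowest there, at 3706 against 4409. *Abca1* was lowest there, at 1554 against 2427. Groups of 3 mutant libraries were not examined in this way.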

How the results depend on the processing

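No paired analysis was possible because the columns carry library numbers and not the replicate numbers of the sample titles. With all libraries, 1 member was higher and 1 lower. DESeq2 called 2 higher and 3 lower, edgeR with the run of libraries as a covariate 2 higher and 6 lower, and limma-voom and the fit with no filter 0 lower. The shares of all genes called rose as well. They were 2.97% higher and 1.87% lower in the main fit, 4.79% and 3.60% with DESeq2, and 6.16% and 5.04% with the covariate. When each library was left out in turn, between 0 and 1 member was higher and between 0 and 1 was lower. RLE and unrounded counts changed no member's call or direction. With the run as a covariate, the log2 fold change changed sign for *Scap* (-0.00040), *Abcg1* (-0.031) and *Npc2* (0.00082). Leaving out libraries changed the sign of 10 members near 0, whose log2 fold changes ran from -0.28 to 0.018 for *Pmvk*, -0.081 to 0.036 for *Nsdhl*, -0.063 to 0.054 for *Lbr*, -0.081 to 0.022 for *Ggps1*, -0.00095 to 0.14 for *Insig1*, -0.15 to 0.032 for *Insig2*, -0.056 to 0.092 for *Scap*, -0.021 to 0.040 for *Stard4*, -0.075 to 0.077 for *Abcg1* and -0.10 to 0.040 for *Npc2*. The cause of these changes was not tested. There were 3 and 4 pools, and the least abundant member, *Nr1h3*, had 48.3 normalized counts or more in each library. Whether depth or the spread between pools set the precision of a given member was not tested. Counts shared with near-identical or overlapping genes remain uncertain for *Acat2*, *Fdps*, *Idi1*, *Fdft1*, *Tm7sf2* and *Scap*. Of the exon bases of *Scap*, 13.2% overlap *5830462I19Rik* on the opposite strand.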
